A study of Mus musculus with 19 samples.

Results

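The comparison asked which transcripts differed in mouse lung after the highest dose of a mixture of polycyclic aromatic hydrocarbons, against vehicle. It set the arrays titled D3 (60 mg benzo[a]pyrene (BaP) equivalents/kg/day) against those titled D0 (olive oil alone), 9 of the 18 mice of the series and 10 of its 19 arrays. D0 held 5 mice (numbers 1, 2, 3, 4 and 5) and D3 held 4 mice (31, 32, 34 and 35), the last with a pair of arrays, 35.1 and 35.2, which were averaged. All were male MutaMouse, a transgenic strain for mutation assays on a mixed BALB/c and DBA/2 background, about 12 weeks old and housed singly. They were gavaged daily for 28 days, and lung was taken 72 h after the last dose. The mixture dissolved in olive oil held 8 such hydrocarbons: BaP, benz[a]anthracene, benzo[b]fluoranthene, benzo[k]fluoranthene, chrysene, benzo[ghi]perylene, dibenz[a,h]anthracene and indenopyrene. The lower doses, 15 (D1, 4 mice) and 30 mg BaP equivalents/kg/day (D2, 5 mice), entered the same model. As a model, each group is 1 strain, 1 sex and 1 time after dosing, and RNA came from random sections of whole lung, so no cell type was separated. A fall in a transcript can therefore stem from fewer cells of a type or from less RNA per cell, and the data cannot tell these apart.

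Polycyclic aromatic hydrocarbons enter cells by diffusion and bind the aryl hydrocarbon receptor (AHR), a ligand-activated transcription factor that pairs with ARNT and switches on the Cyp1 monooxygenases. These enzymes, with epoxide hydrolase, convert them to diol epoxides that bind DNA. DNA damage stabilises p53, which induces genes of cell cycle arrest, cell death and its own degradation. The lung also has a circadian clock, in which ARNTL (BMAL1) and CLOCK drive their own repressors and a set of output factors.

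Each array set lung RNA (Cy5, red) against a common reference RNA from 11 mouse cell lines (Cy3, green), and a level is given as the log2 ratio of red over green. Levels of a gene are compared between mice only, in the order of the mouse numbers above. Red signal was well above background at 54.5% to 64.7% of spots per array, and no spot was saturated. The lung label fitted the arrays: surfactant protein Sftpc read 7.16 to 8.18 in D0 and 6.92 to 7.70 in D3, and club cell Scgb1a1 7.50 to 8.72 and 7.30 to 8.09. The dyes were not swapped, so every ratio is open to dye bias. D0 lay in array column 1 and D3 in column 4 of every slide, so dose and array column cannot be told apart. All 3 slides held both groups, but mouse 35 lay on slide 2 (array 35.1) and was the 1 D3 mouse on slide 3 (array 35.2), so the slides are not independent. Of the 403 genes called below, 399 changed the same way within each slide, a count that their choice by this contrast largely fixes.

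A probe was called when its limma adjusted p (Benjamini-Hochberg) was 0.05 or less and the groups differed by 1.5-fold or more. Among 31120 probes, 754 (2.42%) met both, 374 (1.2%) higher and 380 (1.22%) lower in D3. Each p-value sets the group difference against the spread between mice within groups, pooled over all 18 mice and moderated across probes. An unadjusted p under 0.05 was met by 8138 probes. Taking the brightest probe of each gene, 403 of 14763 genes (2.73%) were called, with 265 (1.8%) higher and 138 (0.935%) lower. By the adjusted p alone 8.41% of genes were higher and 5.39% lower. The change was 2-fold or more for 73 of the higher and 20 of the lower genes. The D3 and D0 mice did not overlap for 354 of the 403 (16.3% among all genes), which the call itself largely fixes. The split depended on the setting. With each array centred on its median in place of loess, 98 probes were called and 82.7% of them were higher, against 49.6% with loess, and on the loess values a limma treat test against 1.5-fold called 60, of which 88.3% were higher. Median centring shifted the median change of all genes from 0.03 to 0.15, kept the direction of all 403 genes and kept the call of 57. Of 24 listed or named called genes with over 1 tested probe, 13 had over 1 probe called, and all probes of 23 shared a direction. The other tested probe was not called for Klra16 (-0.43), Syt15 (-0.45), Cidec (-0.10), Mdm4 (-0.18) and Pigr (-0.24). Nor was that of Dnaja1 (-0.29), Kcnq1ot1 (-0.21), Polk (0.26), Ly6c1 (0.48) or Ces2c (0.09). In the text, rose and fell refer to genes called with loess. Some sizes depended on the signals used: with the scanner software's processed signals in place of median signals, the log2 change was over 1.5 times larger for 19 and over 1.5 times smaller for 4 of 129 called genes followed. Among the larger were Celf5 (3.38), Krt15 (1.81), Psrc1 (1.75), Cxcl1 (1.14) and Ccl4 (-1.15), and others are given beside their genes.

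**Figure D1:**
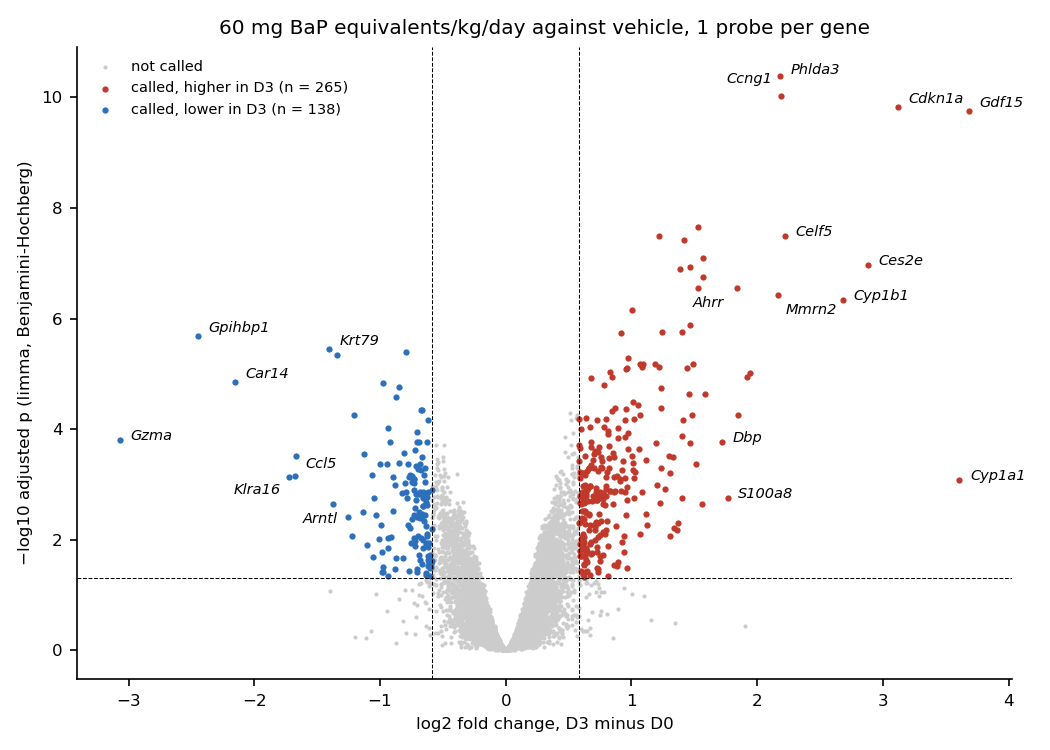
Change of each gene at 60 mg BaP equivalents/kg/day against vehicle, 1 probe per gene: log2 fold change (x axis) against the −log10 of the limma adjusted p (y axis). Red points (265) were called higher and blue points (138) lower, dashed lines mark the thresholds, and Gdf15, Cdkn1a, Ccng1 and Phlda3 have the smallest adjusted p.

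The AHR target list (enzymes and repressors of the receptor) rose in part. Of 9 members tested, 4 were called higher, against 1.8% of all genes, and 0 lower, with a median log2 change of 0.20 against 0.03 for all genes. Cyp1a1 (NM_009992), the classic AHR-induced monooxygenase, read 0.91, 0.99, 0.66, 0.89 and 0.69 in D0 and 6.18, 3.30, 5.03 and 3.24 in D3. All D3 mice lay far above D0, but mice 31 and 34 read higher than mice 32 and 35, and the change of 3.61 ± 0.61 (log2, SE) carried the widest error among the 15 largest increases (limma adjusted p = 0.000838). Cyp1b1 (NM_009994), which also oxidises these hydrocarbons, showed the same order of mice in part, with mouse 31 highest: -2.35, -2.13, -2.01, -1.65 and -2.10 in D0 and 1.44, 0.18, 0.71 and 0.22 in D3, a rise of 2.68 ± 0.23 (limma adjusted p = 4.59e-07).

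Ahrr (NM_009644), the repressor that competes with AHR for ARNT, was more even. It read -0.51, -0.55, -0.77, -0.58 and -0.66 in D0 and 1.37, 1.04, 1.36 and 1.12 in D3, 3.57-fold higher (limma adjusted p = 2.82e-07), although only 1 of 5 D0 mice had signal well above background. The size is therefore uncertain: its log2 change was 1.84 here and 3.76 with processed signals. Nqo1, a quinone reductase under both AHR and NRF2, rose by 0.59 ± 0.15, close to the threshold, and its call was absent under 11 of 33 alternatives, among them slide as a term (0.57), median centring, and leaving out D0 mouse 1 or 5 or D3 mouse 31 or 32. The receptor and its partners did not move past the threshold: 0 of 9 were called, with Ahr at -0.27 ± 0.11 (limma adjusted p = 0.128) and Arnt at 0.09 ± 0.09. Among 18 NRF2-driven antioxidant genes, 1 was called, Osgin1 at 0.62 ± 0.11, while Hmox1, the heme oxygenase, read -0.24 ± 0.08.

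The promoters of the called AHR targets were searched for the AHR element, TNGCGTG on either strand, in the 250 bases before the RefSeq start (GRCm38.p6, a C57BL/6J sequence and not that of the strain used). It was present in 1 of the 4 called members, Ahrr, and in 0 of the 3 tested members with a promoter that were not called. Sequence further upstream was not searched, so elements there would be missed. Of 32851 promoters of all genes 4.1% held it, and of those of tested genes 5.96%. The Ahrr promoter, chr13:74292332-74292581 on the minus strand, is shown with the element in capitals, starting 29 bases before the transcript:
Ahrr: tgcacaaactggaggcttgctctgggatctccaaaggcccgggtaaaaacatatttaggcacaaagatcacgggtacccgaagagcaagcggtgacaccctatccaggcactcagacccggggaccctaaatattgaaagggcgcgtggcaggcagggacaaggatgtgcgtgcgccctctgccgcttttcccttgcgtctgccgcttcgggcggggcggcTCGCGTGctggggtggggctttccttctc

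Some carboxylesterases and the microsomal epoxide hydrolase rose, while most other enzymes of foreign compound metabolism were not called. Ces2e (NM_172759), a carboxylesterase, read 0.31, 0.76, 0.34, 0.75 and 0.54 in D0 and 3.30, 2.95, 3.75 and 3.68 in D3, a 7.37-fold rise (limma adjusted p = 1.09e-07) with no overlap. Its relatives Ces2c (1.53 ± 0.13) and Ces2b (0.62 ± 0.15) were also called, making 3 of 8 carboxylesterases tested, against 1.8% of all genes. The other tested probe of Ces2c read 0.09 and was not called, and cross-hybridisation within this gene family was not tested. Ephx1 (NM_010145), the microsomal epoxide hydrolase that forms diols from their epoxides, read 1.09, 1.33, 1.67, 1.55 and 1.55 in D0 and 2.79, 2.71, 3.01 and 2.77 in D3. Its rise of 1.38 ± 0.11 (limma adjusted p = 1.29e-07) was the 1 call among 20 conjugating and hydrolysing enzymes. Outside the Cyp1 family, 1 of 15 P450 and flavin monooxygenases was called, Fmo1, which fell by 0.76. None of 18 aldehyde dehydrogenases was called by limma, where 1 was higher and 1 lower by the adjusted p alone. Without D3 mouse 34 the count of called carboxylesterases was 2, Ces2b being the gene lost, and Ces2b was also not called with processed signals (1.00, limma adjusted p = 0.11).

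Targets of p53 rose in each of the 4 functional lists. Of 53 members of the 4 p53 lists that were tested, 19 were called higher and 2 lower, against 1.8% and 0.935% of all genes. Cell cycle arrest genes came first: 4 of 10 were called. Cdkn1a (NM_007669), the p21 inhibitor of cyclin-dependent kinases, read -1.05, -0.66, -0.97, -0.93 and -0.56 in D0 and 2.17, 2.26, 2.25 and 2.46 in D3, an 8.68-fold rise (limma adjusted p = 1.48e-10). Ccng1 (NM_009831), cyclin G1, read -0.92, -0.82, -1.06, -1.39 and -1.10 against 1.26, 1.17, 1.05 and 1.03, a change of 2.19 ± 0.10. The D3 mice spanned less than 0.3 log2 units for each gene, a narrower range than that of the D0 mice. Psrc1, a microtubule-binding spindle protein (1.09 ± 0.11), and Plk2, a polo-like kinase (1.07 ± 0.11), completed the group.

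Among p53 genes of cell death, 5 of 15 rose and 0 fell, against 1.8% and 0.935% of all genes. By the adjusted p alone 10 were higher, against 8.41% of all genes. Phlda3 (NM_013750), a p53-induced inhibitor of Akt, had the smallest adjusted p of all genes. It read 0.10, 0.17, 0.02, 0.14 and 0.19 in D0 and 2.29, 2.27, 2.24 and 2.43 in D3, a rise of 2.19 ± 0.09 (limma adjusted p = 4.05e-11). Aen, an apoptosis-enhancing nuclease (1.57 ± 0.12), Zmat3, an RNA-binding p53 target (1.47 ± 0.14), Bax, the pore-forming Bcl2 relative (1.13 ± 0.24), and Tnfrsf10b, the TRAIL receptor (0.80 ± 0.17), also rose. Bax varied more than the others, from -2.32 to -1.48 in D0 and from -1.21 to -0.33 in D3. Bbc3 (PUMA) changed by 0.38 ± 0.13 and did not pass (limma adjusted p = 0.0557). In the list of 13 other Bcl2 family genes 0 were called by limma and 1 was higher by the adjusted p alone. Of 17 death receptors and caspases 1 rose, the ligand Tnfsf10 (TRAIL, 0.75 ± 0.17), and 6 were higher by the adjusted p alone.

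Secreted and metabolic p53 targets held the largest increase of the comparison. Gdf15 (NM_011819), a stress-induced cytokine of the TGF-beta family, read -2.22, -2.02, -2.44, -2.42 and -2.19 in D0 and 1.37, 1.48, 1.33 and 1.54 in D3, 12.9-fold higher (limma adjusted p = 1.8e-10). Of 18 members of its list, 8 rose and 1 fell. Dglucy, the mitochondrial D-glutamate cyclase, rose by 1.94 ± 0.21, and Slc19a2, a thiamine transporter, by 1.46 ± 0.11. Ak1 (0.93), Sesn2 (0.92), Cpt1c (0.89) and Sulf2 (0.67) rose less. Kitl, the ligand of the Kit receptor, was the member that fell, by 0.66, with D0 mice at 2.62 to 2.99 and D3 mice at 2.01 to 2.28.

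The feedback arm of p53 was mixed. Trp53inp1, which promotes p53 activity, rose by 1.42 ± 0.10, and Mdm2, the ubiquitin ligase that degrades p53, read -0.12, 0.02, 0.10, 0.17 and 0.12 in D0 against 0.87, 0.80, 0.82 and 0.94 in D3, a rise of 0.80 ± 0.10 (limma adjusted p = 6.61e-05). Mdm4, the related inhibitor, was called lower at -0.77 ± 0.24, but its groups overlapped, and leaving out D0 mouse 3, 4 or 5 or D3 mouse 31 or 32 ended the call. Trp53 itself was not called (-0.36 ± 0.13, limma adjusted p = 0.0817). Under median centring, 11 of the 21 calls over these lists were kept.

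**Figure D2:**
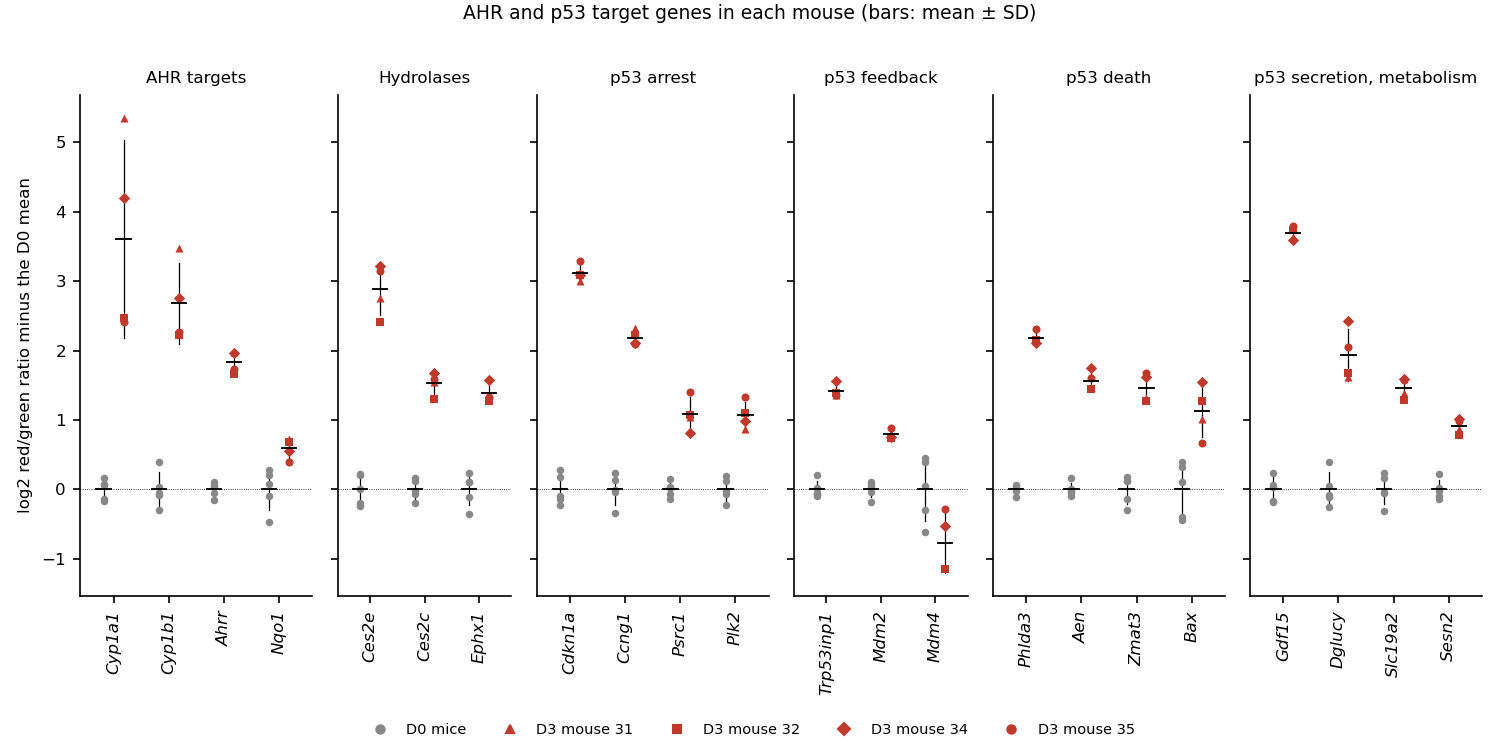
Log2 red/green ratio of each mouse minus the D0 mean (y axis) for AHR target, hydrolase and p53 target genes (x axis), with D0 mice as grey circles, the 4 D3 mice as red symbols, and black bars for mean ± SD. Cyp1a1 and Cyp1b1 spread most between D3 mice, with mouse 31 highest, while the p53 targets Cdkn1a, Ccng1, Phlda3 and Gdf15 lie within narrow ranges.

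A p53 half-site of 10 bases was searched in the same windows as the pattern known by that name, on either strand. It was found in 19.2% of 26 promoters of called p53 list members, in 17.1% of 35 promoters of members not called, in 6.3% of promoters of tested genes and in 7.13% of all promoters. Cdkn1a (chr17:29090729-29090978, plus strand), Ccng1 (chr11:40755287-40755536, minus strand) and Mdm2 (chr10:117710759-117711008, minus strand) are shown because they are an arrest gene, a cyclin and the feedback ligase that rose together. The window of another Cdkn1a start (chr17:29093519-29093768) held 0 matches. A window of Aen and that of Bax also held a match, while those of Phlda3 and Gdf15 did not. Capitals mark matches, which start 73 and 51 bases before the transcript in Cdkn1a, 185 in Ccng1 and 186 in Mdm2:
Cdkn1a: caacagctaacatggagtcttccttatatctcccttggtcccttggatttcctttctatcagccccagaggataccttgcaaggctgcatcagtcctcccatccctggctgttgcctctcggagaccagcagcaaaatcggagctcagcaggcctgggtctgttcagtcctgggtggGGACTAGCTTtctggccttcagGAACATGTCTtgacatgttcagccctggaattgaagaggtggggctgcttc
Ccng1: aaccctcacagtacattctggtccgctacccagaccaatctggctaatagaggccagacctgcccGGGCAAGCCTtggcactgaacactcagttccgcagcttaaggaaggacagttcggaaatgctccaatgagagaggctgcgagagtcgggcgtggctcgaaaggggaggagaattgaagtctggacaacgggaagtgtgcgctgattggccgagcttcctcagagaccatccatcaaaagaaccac
Mdm2: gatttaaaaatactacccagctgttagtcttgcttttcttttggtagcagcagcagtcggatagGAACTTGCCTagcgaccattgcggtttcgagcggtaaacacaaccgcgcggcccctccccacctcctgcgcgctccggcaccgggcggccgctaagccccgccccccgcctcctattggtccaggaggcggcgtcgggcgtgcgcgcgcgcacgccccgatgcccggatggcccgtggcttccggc

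Of the repair and replication lists, 5.26% of nucleotide excision repair and lesion bypass, 11.1% of other repair and 10.3% of replication genes were called, against 2.73% of all genes. Polk, the polymerase that bypasses bulky DNA adducts, was the 1 of 19 nucleotide excision repair and lesion bypass genes called (0.73 ± 0.18, limma adjusted p = 0.0134), with D0 mice at -0.59 to -0.05 and D3 mice at -0.10 to 0.60, and the call was lost without D3 mouse 35. Xpc, the damage sensor, changed by 0.24 ± 0.08 and was not called. Of 18 other repair genes 2 rose, among them Mgmt, the O6-alkylguanine transferase (0.96 ± 0.19). The replication list had a median of 0.28 and 3 of 29 members called (Rrm2, Gins1 and Mcm2, each at 0.61 to 0.67), a count that was 0 without D3 mouse 35, the highest of the D3 mice for all 3 genes. By the adjusted p alone 10 were higher and 1 lower, against 8.41% and 5.39% of all genes. None of 26 mitosis genes was called by limma, where 1 was higher and 1 lower by the adjusted p alone. Ccnd1, cyclin D1, was the 1 of 13 other cyclins and inhibitors called, at 0.96 ± 0.10, a count that was 3 without D0 mouse 1 or D3 mouse 31, 2 without D0 mouse 3 or 5 or D3 mouse 32, 2 with slide as a term and 0 under median centring.

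Genes of the circadian clock were called in all 3 of their lists. Of 7 activators and related factors 1 rose and 2 fell, of 9 repressors 3 rose, and of 8 output factors 5 rose, against 1.8% of all genes higher and 0.935% lower. Arntl (NM_007489), the activator, read 0.11, 0.13, -0.31, 0.42 and -0.60 in D0 and -1.25, -1.35, -1.32 and -1.32 in D3, a change of -1.26 ± 0.26 (limma adjusted p = 0.00381). The D3 mice lay within 0.1 log2 units of each other and below every D0 mouse, while the D0 mice spread over 1.0 log2 unit, with mouse 5 lowest. Nfil3, a repressor of output genes, fell by 0.66, and Clock read -0.39 ± 0.13 (limma adjusted p = 0.0568).

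Among the output factors, Dbp (NM_016974), a direct target of the activators, read 0.43, 0.61, 1.00, 0.24 and 1.78 in D0 and 2.72, 2.60, 2.38 and 2.43 in D3, a 3.3-fold rise (limma adjusted p = 0.000172), again with D0 mouse 5 nearest to D3. Tspan4 (1.24 ± 0.14), Wee1, the mitotic inhibitor kinase (1.00 ± 0.15), Hlf (0.75 ± 0.21) and Tef (0.71 ± 0.17) rose too, Hlf with overlap and uncalled once D0 mouse 2, 3 or 4 or D3 mouse 31, 34 or 35 was left out. Among repressors, Per2 (0.88 ± 0.19), Nr1d2 (0.77 ± 0.14) and Per3 (0.64 ± 0.16) rose. Per1 did not (-0.24 ± 0.25), and Tef was the 1 of 129 listed or named called genes whose direction differed within a slide. The time of day of sampling is not given in the sources used here, and its part in these values was not tested. Under median centring, 1 of the 11 calls over these lists was kept.

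The E-box CACGTG, which the activators bind, was present in 3 of 11 promoters of called clock genes, in 3 of 16 of those not called, in 7.79% of promoters of tested genes and in 6.02% of all promoters. It lay in the promoters of Tef and Tspan4, shown with it in capitals. The window of another Tef start (chr15:81811164-81811413) also held it, and that of another Tspan4 start (chr7:141474986-141475235) did not. The Tef window (chr15:81802423-81802672, plus strand) holds it 127 bases and the Tspan4 window (chr7:141476130-141476379, plus strand) 51 bases before the transcript:
Tef: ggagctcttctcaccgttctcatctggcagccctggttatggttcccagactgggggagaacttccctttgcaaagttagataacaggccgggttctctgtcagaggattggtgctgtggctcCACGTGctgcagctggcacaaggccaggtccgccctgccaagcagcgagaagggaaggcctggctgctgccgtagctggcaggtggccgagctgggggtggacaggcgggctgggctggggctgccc
Tspan4: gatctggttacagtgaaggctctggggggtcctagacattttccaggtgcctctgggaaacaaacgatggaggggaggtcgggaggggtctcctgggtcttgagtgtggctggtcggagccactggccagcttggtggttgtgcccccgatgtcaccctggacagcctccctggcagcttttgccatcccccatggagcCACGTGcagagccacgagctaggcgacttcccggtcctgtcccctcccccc

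Some transcripts of natural killer (NK) cells fell. Gzma (NM_010370), the granzyme A protease of their granules, had the largest decrease of the comparison. It read 5.86, 3.98, 5.55, 4.22 and 4.27 in D0 and 1.78, 2.02, 2.00 and 1.03 in D3, 8.4-fold lower (limma adjusted p = 0.000159), with D0 mice 1 and 3 highest and D3 mouse 35 lowest. Of 20 genes of cytotoxic and NK cells, 4 fell and 0 rose, against 0.935% of all genes lower, with a median of -0.36 against 0.03 for all genes. The count was 1 under median centring and 7 without D3 mouse 32. The others were Tbx21 (T-bet, which fell by 0.71), Prf1 (perforin, 0.66 lower: -0.18, -0.16, -0.01 and -0.02 in D3 against 0.32 to 0.91 in D0) and S1pr5 (an egress receptor, which fell by 0.61, or by 1.31 with processed signals, and was well above background in 2 of 4 D3 mice). Gzmb was not called (-0.29 ± 0.16).

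Ly49 receptors, the lectins by which NK cells read MHC class I, gave 4 calls lower among 6 tested, against 0.935% of all genes. Klra16 (NM_013794) read 0.79, -0.46, 0.74, -0.21 and -0.25 in D0 and -1.49, -1.56, -1.10 and -2.25 in D3, and Klra4 (NM_010649) -0.10, -1.23, -0.01, -0.99 and -1.04 against -2.13, -2.03, -2.19 and -3.01. D0 mice 1 and 3 were again high and D3 mouse 35 low in both. Klra16 fell by 1.72 and Klra4 by 1.67 (log2), Klra4 being well above background in 3 of 4 D3 mice. The other tested probe of Klra16 changed by -0.43 and was not called. Klra7 fell by 0.64 with 1 of 4 D3 mice above background. With processed signals the changes were -3.19 for Klra4 and -2.47 for Klra7. Klra8 was well above background in no D3 mouse, so only a bound can be given: in the normalised red signal it was at least 2.08-fold lower (limma adjusted p of its ratio = 0.000429). These genes are near copies of each other and vary between mouse strains, so which receptor each probe read is uncertain. Of 22 T cell genes 0 were called by limma, with 1 higher by the adjusted p alone and a median of 0.25, and Cd3e read 0.05 ± 0.11. The T cell count was 3 without D3 mouse 35, 2 without D3 mouse 31, and 1 without D0 mouse 5, with array 35.1 alone or with slide as a term, each of them higher. Of 21 B and plasma cell genes 1 was called, Jchain, which fell by 0.70.

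Several neutrophil transcripts rose, most of all in 1 mouse. Of 23 tested, 9 were called higher, against 1.8% of all genes, and 0 lower (median 0.38), and 2 were lower by the adjusted p alone. S100a8 (NM_013650), a calprotectin subunit, read 1.29, 1.47, 1.29, 1.99 and 0.82 in D0 and 2.85, 3.02, 4.49 and 2.20 in D3, a rise of 1.77 ± 0.33 (limma adjusted p = 0.00178). Mmp8, the neutrophil collagenase, rose by 1.49 ± 0.16, from 0.51, 0.46, 0.43, 0.70 and 0.58 to 1.91, 1.95, 2.49 and 1.77. D3 mouse 34 was highest for both, and its mean over the list stood 1.02 above the D0 mean, where the other D3 mice stood at 0.21 to 0.32 and D0 mouse 4 at 0.25. Retnlg (1.30), Asprv1 (1.08), Cxcr2 (0.92), S100a9 (0.86), Lcn2 (0.81), Il1r2 (0.72, above background in 1 of 5 D0 mice) and Mmp9 (0.68) were also called, S100a9, Lcn2 and Mmp9 with overlap. With processed signals Mmp8 stood at 2.50, Asprv1 at 1.87, Mmp9 at 1.62 and Il1r2 at 2.23, and neither S100a9 (0.36, though 1.61 in the red channel alone) nor Cxcr2 (1.52, limma adjusted p = 0.0822) was called. Without D3 mouse 34 Retnlg stood at 0.84 and Mmp9 at 0.44, the latter uncalled. Without D3 mouse 34 the count was 6, and under median centring 3.

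Stefins, cysteine protease inhibitors of myeloid cells, and Wfdc protease inhibitors had 5 of 12 members called higher, against 1.8% of all genes. Stfa1 (NM_001082543) read 0.23, 0.53, 0.21, 0.50 and 0.25 in D0 and 1.40, 2.41, 3.03 and 1.92 in D3, a rise of 1.84 ± 0.23 (limma adjusted p = 5.43e-05), and Stfa2l1 rose by 1.36 ± 0.31. With processed signals these changes were 3.63 and 2.45. The stefins are near copies, so the member read by each probe is uncertain. Wfdc17 (1.52 ± 0.23), Wfdc12 (1.41 ± 0.26) and Wfdc21 (0.87 ± 0.15) rose without overlap. The count was 5 without D3 mouse 34, 2 under median centring and 1 with a test against 1.5-fold (limma treat).

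Of 14 cytokines and acute phase genes 3 rose (21.4%, against 1.8% of all genes higher): Saa3, serum amyloid A (1.57 ± 0.30), Il1b, interleukin 1 beta (1.07 ± 0.25, with D3 mouse 34 at 4.00 and the other D3 mice at 2.22 to 2.68), and Serpina3n (0.72 ± 0.21). Il1b stood at 0.68 without D3 mouse 34, and Serpina3n at 0.24, uncalled, with processed signals. The inflammatory list mean was highest in D3 mouse 35 (0.42 above the D0 mean) and the neutrophil list mean in mouse 34, and the part of neutrophils in these values was not tested. Chemokine ligands moved both ways, 2 higher and 3 lower of 24, against 1.8% and 0.935% of all genes. Ccl9 rose by 1.30 ± 0.19 and Cxcl1, a neutrophil attractant, by 0.69 ± 0.18. Ccl5 (NM_013653), made by NK and T cells, read 0.79, -0.49, -0.11, -0.76 and -0.54 in D0 and -1.84, -1.58, -1.73 and -2.43 in D3, a fall of 3.19-fold (limma adjusted p = 0.000714), and Ccl4 fell by 0.73 and Cx3cl1 by 0.65. Ackr3, a scavenging chemokine receptor, rose by 1.59 ± 0.18. Cxcr1 was called at 0.82 ± 0.26 with overlap, a call absent under 21 of 33 alternatives. None of 28 interferon-stimulated, 11 MHC class II or 20 MHC class I genes was called by limma. By the adjusted p alone 1 MHC class I gene was lower and 0 of the others passed.

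**Figure D3:**
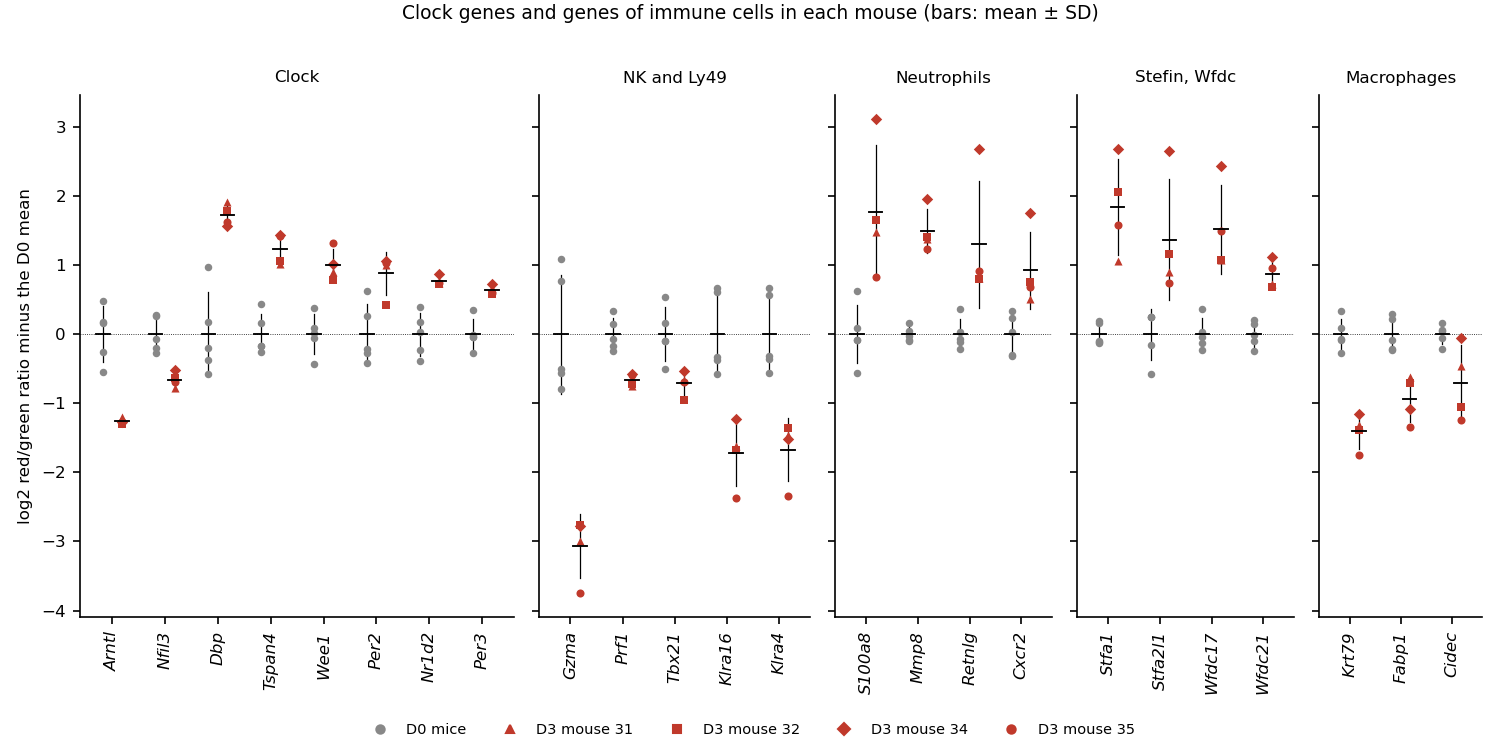
Log2 red/green ratio of each mouse minus the D0 mean (y axis) for clock genes and genes of immune cells (x axis), with D0 mice as grey circles, D3 mice as red symbols by mouse, and black bars for mean ± SD. Arntl and the NK and macrophage genes lie below the D0 mean, the clock outputs and neutrophil genes above it, and D3 mouse 34 (diamond) is highest for S100a8, Mmp8, Retnlg and Cxcr2.

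Some alveolar macrophage transcripts fell. Krt79 (NM_146063), a keratin that mouse alveolar macrophages express, read 3.55, 3.73, 4.15, 3.75 and 3.90 in D0 and 2.49, 2.43, 2.66 and 2.06 in D3, 2.65-fold lower (limma adjusted p = 3.56e-06). Fabp1, a fatty acid binding protein, fell by 0.94 (-0.61 and uncalled with processed signals), and Cidec, a lipid droplet protein, by 0.70, with overlap and uncalled once D0 mouse 1, 3, 4 or 5 or D3 mouse 32 or 35 was left out. In all, 3 of 23 members fell, against 0.935% of all genes, and 0 rose (median -0.27). By the adjusted p alone 5 were lower, against 5.39% of all genes, and 0 higher, and the count called was 0 under median centring. Members ranged up to 0.94 for the scavenger receptor Marco, which did not pass (limma adjusted p = 0.0747). Marco was called higher under 4 of 33 alternatives, among them slide as a term (0.87, limma adjusted p = 0.0305), which brought the list's count to 4, and the D0 and D3 mice alone. The list mean was -0.25 to -0.13 around the D0 mean in the D3 mice. Of 6 eosinophil-associated ribonucleases and eosinophil genes, Ear10 (0.99 lower) and Rnase2a (0.94 lower) were called. These ribonucleases are near copies, and leaving out D0 mouse 1, 3, 4 or 5 or D3 mouse 31, 34 or 35 ended both calls.

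Other myeloid lists had 1 or 2 calls each, 11.1% of monocyte and interstitial macrophage, 9.09% of dendritic cell, 11.1% of mast cell and 20% of platelet genes, against 2.73% of all genes. Lyve1, a hyaluronan receptor of lymphatic endothelium and of a macrophage subset, read 5.66, 6.40, 5.87, 5.00 and 5.76 in D0 and 6.83, 7.10, 7.29 and 6.97 in D3, a rise of 1.31 ± 0.21 (limma adjusted p = 0.000623). With Ly6c1 (0.61 ± 0.11) it made 2 of 18 genes of monocytes and interstitial macrophages. Cd209a, a lectin of dendritic cells, fell by 0.82, and Gata2, a factor of mast cells and endothelium, by 0.67, each the 1 call of its list. Platelet genes Pf4 (0.73 ± 0.23) and Gp1bb (0.64 ± 0.18) were called of 10, and neither was called once D0 mouse 3 or 4 or D3 mouse 31 or 34 was left out, Pf4 also not without D0 mouse 2 or 5 or D3 mouse 35.

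Mmrn2, Ramp3 and Gpihbp1 were among the 15 largest changes each way and are named by that rule. Mmrn2 (NM_153127), an endothelial matrix protein, read 5.15, 5.08, 5.12, 5.27 and 5.43 in D0 and 7.18, 7.37, 7.31 and 7.64 in D3, a 4.48-fold rise (limma adjusted p = 3.81e-07). Ramp3, which with its partner receptor binds adrenomedullin, rose by 1.92 ± 0.21. Gpihbp1 (NM_026730), which carries lipoprotein lipase across capillary endothelium, read 6.19, 5.85, 6.73, 6.53 and 6.52 in D0 and 3.37, 3.95, 4.09 and 4.25 in D3, a 5.45-fold fall (limma adjusted p = 2.09e-06). Mmrn2, Ramp3 and Gpihbp1 moved without overlap. The SD in D0 and D3 was 0.15 and 0.19 for Mmrn2 and 0.35 and 0.38 for Gpihbp1.

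In the endothelial list 4 of 31 members were called higher and 2 lower, against 1.8% and 0.935% of all genes, with a median of 0.00. Pecam1 (CD31) rose by 0.66 ± 0.15, Edn1 (endothelin) by 0.80 ± 0.18, Notch4 by 0.67 ± 0.12 and Vegfc by 0.63 ± 0.16. Esm1, a proteoglycan of angiogenic tip cells, read 2.59, 2.83, 2.93, 1.74 and 2.44 in D0 and 1.43, 1.43, 0.61 and 1.06 in D3 and fell by 1.37 ± 0.26, and Ednrb, an endothelin receptor, fell by 0.90. In the list of lipoprotein lipolysis, Angptl4, the lipase inhibitor, was the other call beside Gpihbp1 of 13 (0.88 lower), a call that ended with D0 mouse 3, 4 or 5 or D3 mouse 31, 34 or 35 left out. Acot1 was the 1 of 22 PPAR-controlled fatty acid genes called, against 2.73% of all genes, and it fell by 0.60 with overlap.

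Car14 (NM_011797), a membrane carbonic anhydrase, stood out from its family. It read 2.21, 2.24, 2.66, 3.07 and 3.41 in D0 and 0.09, 0.49, 0.76 and 0.92 in D3, 4.44-fold lower (limma adjusted p = 1.39e-05). It was the 1 of 10 carbonic anhydrases called, against 2.73% of all genes. The others ranged from -0.34 (Car9) to 0.23 (Car13) in log2 change.

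Epithelial lists had 0 to 2 calls each, 0% to 16.7% of their members, against 2.73% of all genes. Of 18 alveolar type 2 genes 0 were called by limma (2 were lower by the adjusted p alone), with a median of -0.31, and Sftpc read -0.32 ± 0.24. Of 17 club and secretory genes 1 fell, Pigr, the immunoglobulin transporter (0.74 lower), with a median of -0.36 and Scgb1a1 at -0.36 ± 0.28. The club list varied widely between mice within both groups, from -0.54 to 0.86 around the D0 mean in D0 and from -0.76 to 0.43 in D3. Of 15 alveolar type 1 genes Igfbp2 rose (0.94 ± 0.25) and Cav1, caveolin, fell (0.64 lower), and Ager was not called (-0.39 ± 0.18). None of 17 genes of motile cilia was called by limma, 1 being lower by the adjusted p alone, and Krt15 was the 1 of 6 basal cell genes called (0.89 ± 0.25).

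Of the stromal lists, 11.5% of collagens and matrix enzymes and 13.6% of fibroblast, smooth muscle and mesothelial genes were called, against 2.73% of all genes. Mmp2, gelatinase A (0.86 ± 0.15), Timp3 (0.66 ± 0.11) and Col18a1 (0.62 ± 0.11) were called of 26 collagens and matrix enzymes. Among 22 genes of fibroblasts, smooth muscle and mesothelium, Mfap4 (0.65) and Postn (0.64) rose and Dcn, decorin, fell by 0.82, and Mfap4 stood at 0.38, uncalled, with processed signals and at 1.33 in the red channel alone, where Postn (0.41) was not called. Markers of heart and skeletal muscle, tissue that can be sampled with lung, were not called (0 of 21 by limma, and 0 by the adjusted p alone) but differed widely between D3 mice, at 0.22, 0.02, 0.92 and -1.61 around the D0 mean, with mouse 35 lowest.

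Stress-related lists had 1 or 2 calls each, 9.09% of heat shock, 13.3% of glucocorticoid-responsive, 9.09% of immediate early and 14.3% of noncoding RNA genes, against 2.73% of all genes. Dnaja1 and Dnajb1, co-chaperones of HSP70, were called lower of 22 heat shock and unfolded protein genes. Dnajb1 read 0.02, 2.16, 0.22, 0.22 and 0.26 in D0 and -0.44, -0.51, -0.38 and -0.28 in D3, with D0 mouse 2, which stood 0.63 above the D0 mean over the list, far above the rest. Its call ended without that mouse or any 1 D3 mouse, and that of Dnaja1 without D3 mouse 32. Of 15 glucocorticoid-responsive genes, Errfi1 and Angptl4 fell. Ccn1 was the 1 of 11 immediate early genes called (0.65 ± 0.17). Of 14 long noncoding RNAs, Tug1 (0.79 lower) and Kcnq1ot1 (0.73 lower) fell, and the other 2 tested probes of Tug1 did not share its direction. None of 7 red blood cell, 12 fat cell, 20 cholesterol or 3 sex-linked genes was called by limma. By the adjusted p alone 1 red blood cell gene was higher, and 1 fat cell and 2 cholesterol genes were lower.

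**Figure D4:**
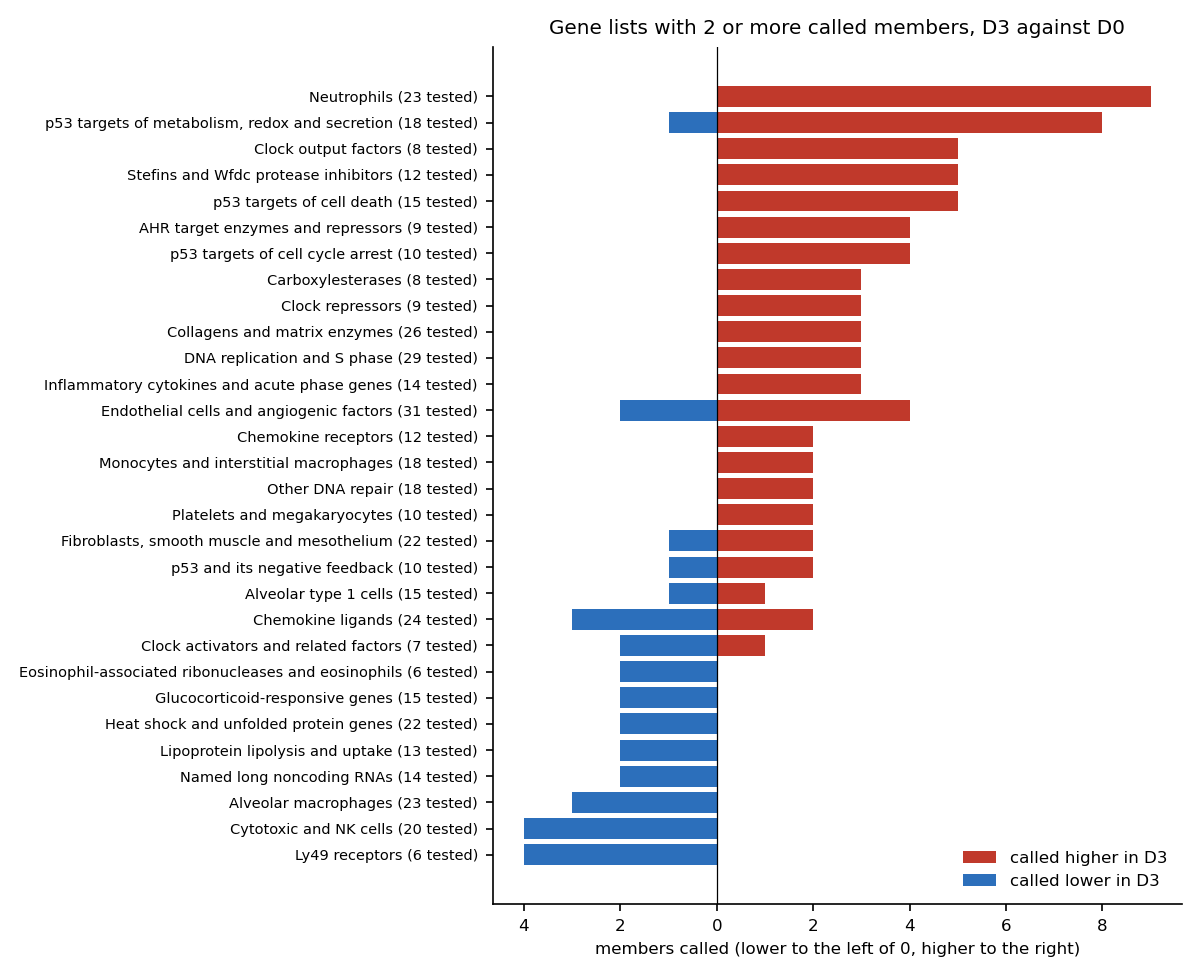
Number of members called higher (red, to the right) and lower (blue, to the left) in D3 for each gene list with 2 or more calls (x axis, count of genes; the number tested stands beside each name). Neutrophil (9) and metabolic p53 genes (8) had the most members called higher, and the NK and Ly49 lists (4 each) the most called lower.

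Further genes among the largest changes belonged to none of these lists. Celf5 (NM_176954), an RNA-binding splicing regulator, read -2.38, -2.07, -2.40, -2.42 and -2.56 in D0 and -0.20, -0.18, -0.11 and -0.08 in D3, a 4.67-fold rise (limma adjusted p = 3.27e-08). Syt15, a synaptotagmin, fell by 1.34, Cdh16, a cadherin known from kidney, by 1.22, Kif26b, a kinesin relative, by 1.21, Fpr1, the formyl peptide receptor of myeloid cells, by 1.13, Cpne5, a copine, by 1.13, and Spon2, a matrix protein, by 1.11. Of these, Spon2 alone had overlapping groups. For Fpr1, D0 mice read 3.32, 3.22, 3.11, 3.35 and 3.59 and D3 mice 2.14, 2.26, 2.44 and 1.89, with mouse 34 highest of the D3 mice.

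The top dose was also set directly against the lower doses, which asks where 60 mg BaP equivalents/kg/day went beyond them. Against D2, 25 of 14763 genes (0.169%) were called, 21 (0.142%) higher and 4 (0.0271%) lower, from 33 probes (0.106%) of which 29 (0.0932%) were higher and 4 (0.0129%) lower. Against D1, 34 genes (0.23%) were called, 25 (0.169%) higher and 9 (0.061%) lower, from 45 probes (0.145%) of which 34 (0.109%) were higher and 11 (0.0353%) lower. The split moved with 1 mouse: without D1 mouse 22, 43 probes were called against D1, of which 41.9% were higher, against 75.6% with it. Of the 403 genes called against vehicle, 16 were called against both lower doses, 8 against D2 alone and 13 against D1 alone. Leaving out 1 mouse moved the number of probes called against D2 from 33 to between 16 (without D3 mouse 35) and 83 (without D2 mouse 28). An array labelled D2 carries the mouse number 23, which falls among the D1 numbers, and counting it in D1 left 14 probes called against D2. With median centring limma called 0 probes against either dose, with 417 at an unadjusted p under 0.05 against D2 and 458 against D1.

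Of the 16 genes called against both lower doses, 6 were members of the p53 lists, which held 21 of the 403 genes called against vehicle. Cdkn1a was 1.16 above D2 and 1.17 above D1 in log2 ratio (limma adjusted p = 0.0024 and 0.0027), Ccng1 1.02 and 1.06, Phlda3 0.74 and 0.86, Psrc1 0.76 and 0.70, Slc19a2 0.63 and 0.72 and Cpt1c 0.59 and 0.67. Celf5 was 1.05 and 1.45, Mmrn2 0.96 and 1.04 and Stfa1 1.21 and 1.38 above them. Gpihbp1 was 1.46 below D2 and 1.77 below D1, and Krt79 0.93 and 1.22 below. Gdf15 was called against D2 (1.08, limma adjusted p = 0.0152) and not against D1 (0.86, limma adjusted p = 0.0868).

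The AHR targets and clock genes called against vehicle were not called against either lower dose. Neither were most of all 403 genes called against vehicle: 16 were called against both, 8 against D2 alone and 13 against D1 alone. Ahrr stood 0.05 above D2 (limma adjusted p = 0.94), Cyp1a1 0.65 (limma adjusted p = 0.741) with the wide spread between mice given above, and Cyp1b1 0.27. Dbp stood at -0.15 against D2 and Arntl at 0.04. Gzma was 0.94 below D2 (limma adjusted p = 0.39) and 1.47 below D1, which did not pass. A missed threshold does not show that the doses acted alike.

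**Figure D5:**
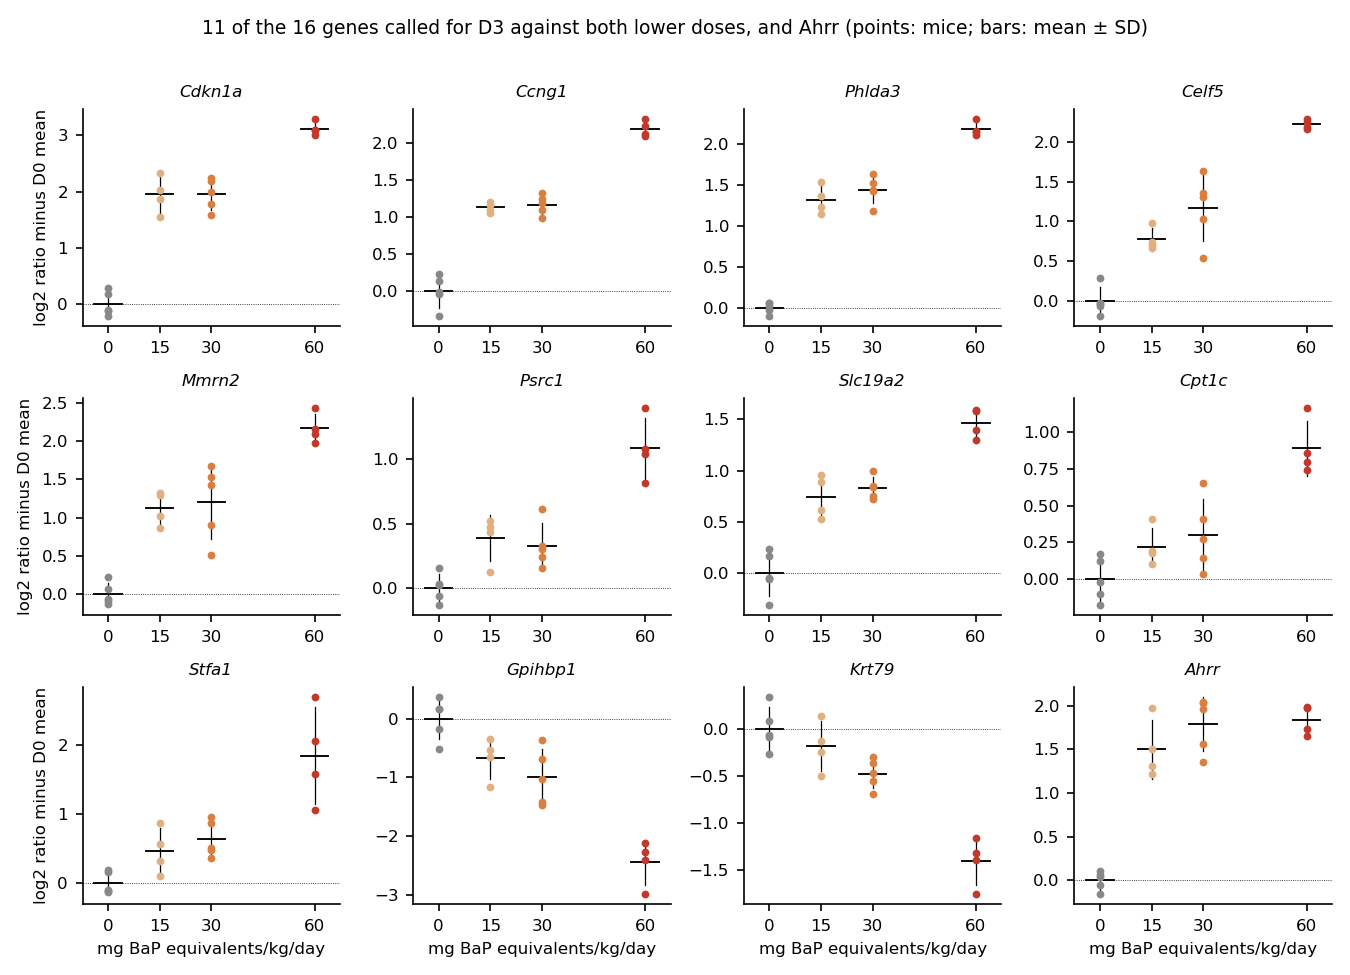
Log2 red/green ratio minus the D0 mean (y axis, scaled per panel) against dose in mg BaP equivalents/kg/day (x axis), with 1 point per mouse and black bars for mean ± SD. The panels hold 11 of the 16 genes called against both lower doses, chosen for that difference, in which no D3 mouse overlaps another group, while for Ahrr the D3 mice lie among those of the lower doses.

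Among probes without a gene symbol more were called lower than higher, and the reverse under median centring and limma treat. Of 11866 tested, 58 were called higher and 195 lower, so 77.1% of their calls were lower, against 36.9% of the calls among 19254 probes with a symbol. With median centring 23 were called higher and 7 lower (23.3% lower), against 58 and 10 (14.7% lower) with a symbol, and limma treat on the loess values called 13 higher and 2 lower (13.3% lower), against 40 and 5 (11.1% lower). The difference in direction was not tested. Their overall share of calls was 2.13%, against 2.6%. Of the 253 called, 87 were probes against chromosomal regions outside annotated genes.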

How the data were processed

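Lung RNA (200 ng per array) was hybridised with reference RNA on 19 2-colour Agilent arrays (62976 spots). Per the file headers, Feature Extraction 11.0.1.1 gave the red and green intensity of each spot. The deposited log2 table of normalized ratios, made by the authors with LOWESS on median signals, served as an alternative and correlated at 0.995 to 0.998 with the ratios used. Median intensities without background subtraction were normalised by loess (span 0.3) in limma 3.58.1 (R 4.3.3), standing in for the authors' MAANOVA. Control and outlier spots got weight 0, spots of a probe were averaged, and arrays 35.1 and 35.2 (r = 0.978) became 1 mouse. Probes well above background in 4 mice of 1 group were tested in 1 model of 18 mice. A gene was its brightest tested probe, named through RefSeq (GRCm38.p6), which matched 21465 of 22765 identifiers. Named were the 15 largest changes each way and called members of 59 lists. The members and lists were chosen with earlier results of these data known. Tested on simulated data, 91% of probes changed by 1 log2 unit were recovered for D3 against D0 (31120 probes, 200 changed, 4 false calls). Alternatives were other normalisations, filters, thresholds and left-out mice. Normexp was run on median in place of mean signals, and slide entered as a fixed term because a random block could not be fitted. Called genes outside these rules, and a few within them, are not reported here. The number of arrays limits the precision.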

Additional observations from a re-analysis of the deposited data

Results flagged for a closer look

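Among 112 groups of 4 or 5 mice examined, 7 held 1 mouse that stood apart from its group by Dixon's test, which chance alone gives in about 1 in 20 groups. In D3, mouse 35 read -3.01 for Klra4, against -2.19 to -2.03 in the others. Mouse 34 read 3.97 for Retnlg, against 2.09 to 2.21, and 1.43 for Nr1d2, against 1.28 to 1.30. Mouse 32 read 1.12 for Per2, against 1.70 to 1.76. In D0, mouse 5 read 4.66 for Cdh16, against 3.57 to 3.82, and -1.73 for Spon2, against -0.82 to -0.45. Mouse 2 read 2.00 for Il1b, against 1.65 to 1.74.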

How the results depend on the processing

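The 754 probes called for D3 against D0 became 98 with median centring, 60 with a limma treat test against 1.5-fold and 1366 with the scanner software's processed signals, which kept 57, 39 and 328 of the 403 genes. The other alternatives gave 682 to 859, and leaving out 1 mouse gave 641 to 788. Against D2 (33 probes) the counts were 0 with median centring, 0 with treat (21 at an unadjusted p under 0.05), 21 with processed signals, 54 with arrays 35.1 and 35.2 as separate samples and 14 with mouse 23 counted in D1. Leaving out 1 mouse gave 16 to 83, with 19 without D3 mouse 31 or 32, 17 without D2 mouse 23 or 30, 16 without D3 mouse 35 and 83 without D2 mouse 28. Against D1 (45 probes) the counts were 0 with median centring and 0 with treat (24 at an unadjusted p under 0.05). Leaving out 1 mouse gave 25 to 48, with 26 without D1 mouse 21, 27 without D1 mouse 25 or D3 mouse 32, 25 without D3 mouse 31 and 28 without D3 mouse 35. Of 144 genes followed, median centring ended 93 calls and treat 100. Cd3e turned to -0.0082 with the pair of arrays separate and ranged from -0.049 (without D3 mouse 32) to 0.14 (without D3 mouse 35) with 1 mouse left out, and Scgb1a1 to 0.018 in the red channel alone, none of them called. The cause of these differences was not tested. No paired analysis was possible because the mouse numbers are not shared between groups, while the fit with slide as a term gave 781 probes for D3 against D0.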
